A study of Mus musculus with 22 samples.

Results

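The 10 genes described here, of melanin synthesis and of the melanosome (the organelle that makes and stores the pigment), were followed in bulk RNA sequencing of mouse retina and choroid after laser injury. They were taken by symbol, as the rows named Tyr, Tyrp1, Dct, Pmel, Mlana, Slc24a5, Slc45a2, Oca2, Mitf and Gpr143, which are 10 of the 54532 genes in each of the 2 deposited count tables. All 10 had enough reads to be tested in both tables. The laser opens the barrier under the retina and starts choroidal neovascularisation (CNV), in which vessels of the choroid grow into the retina. The series asks how natural killer cells and neutrophils act in this model, and the pigment genes were not its stated subject.

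The wild-type (WT) table held 16 libraries, with 4 from age-matched controls that had no CNV and 4 from each of 3 times after laser-induced CNV (day 3, day 7 and day 14). The protocol names adult C57BL/6J mice, a pigmented strain. The other table held 3 libraries from Rag2-/-γc-/- mice, called Rag2 gc KO here, and 3 from Rag2-/- mice, called Rag2 KO, all at day 3 after the laser. Rag2 KO mice make no T or B cells, a defect that both genotypes share, and Rag2 gc KO mice also lack the common gamma chain that natural killer cells need to develop. The labels give both genotypes the same tissue and treatment and no separate strain background. Whether a library is 1 animal or several is not stated, so p-values measure only the spread between these libraries, which may be technical. Control replicate 4 carries a title without CNV and a treatment tag with it.

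Melanin is made inside melanosomes by tyrosinase (Tyr), which oxidises tyrosine, and by the related enzymes Tyrp1 and Dct. Pmel forms the fibrils on which the pigment is laid down, Mlana (also called MART-1) is a melanosome protein that associates with Pmel, and the transporters Slc24a5, Slc45a2 and Oca2 set the ion content and pH of the organelle. Mitf is the transcription factor that drives many of these genes, and Gpr143 is a melanosomal receptor that limits melanosome size. In the back of the eye the genes are used by 2 kinds of pigment cell, the retinal pigment epithelium under the photoreceptors and the melanocytes of the choroid, and further forward by the pigmented epithelia of the ciliary body and iris. In bulk tissue, fewer pigment cells and less RNA per pigment cell cannot be told apart.

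The promoters of the enzymes show what Tyr, Tyrp1 and Dct share in sequence. Mitf binds an E-box that in pigment genes often lies in a longer element, the M-box, and the 250 bases before each start site were read from the RefSeq promoter table (GRCm38.p6), which held 6 of the 10 genes. The longest stretch around the E-box CATGTG that the Tyr, Tyrp1 and Dct promoters share was GTCATGTGCT, called the M-box core here. These 3 hold it by construction, the other 3 genes did not, and on either strand it was in 0.155% of all 32851 promoters of the same length. The 4 promoters below are those of these enzymes and of Slc24a5, which fell after the laser at both day 3 and day 7. They are written 5′ to 3′ on the strand of the gene, from 250 bases before the start site to the base before it. Capitals mark the M-box core, or the E-box CATGTG with its reverse complement CACATG where it lies outside the core.
Tyr: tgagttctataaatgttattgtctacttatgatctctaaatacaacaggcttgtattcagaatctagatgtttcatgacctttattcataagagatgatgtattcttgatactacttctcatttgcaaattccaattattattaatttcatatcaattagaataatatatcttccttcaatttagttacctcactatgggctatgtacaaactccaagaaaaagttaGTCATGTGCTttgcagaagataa
Tyrp1: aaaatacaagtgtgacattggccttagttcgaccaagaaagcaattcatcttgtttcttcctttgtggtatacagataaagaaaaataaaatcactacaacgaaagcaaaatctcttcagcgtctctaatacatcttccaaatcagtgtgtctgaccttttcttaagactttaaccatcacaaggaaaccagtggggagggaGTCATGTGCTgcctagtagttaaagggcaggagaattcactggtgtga
Dct: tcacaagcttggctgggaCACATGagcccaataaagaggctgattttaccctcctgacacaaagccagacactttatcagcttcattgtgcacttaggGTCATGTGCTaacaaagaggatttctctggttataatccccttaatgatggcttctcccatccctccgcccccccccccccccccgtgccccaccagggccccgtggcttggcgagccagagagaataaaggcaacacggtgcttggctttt
Slc24a5: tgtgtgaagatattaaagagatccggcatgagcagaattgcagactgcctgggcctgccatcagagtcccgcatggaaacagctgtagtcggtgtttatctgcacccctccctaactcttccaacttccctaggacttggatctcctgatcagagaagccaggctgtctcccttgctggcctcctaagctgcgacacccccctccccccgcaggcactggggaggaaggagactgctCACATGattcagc
The Tyr window is chr7:87493513-87493762 (minus strand), the Tyrp1 window chr4:80833963-80834212 (plus strand), the Dct window chr14:118052247-118052496 (minus strand) and the Slc24a5 window chr2:125067877-125068126 (plus strand). The start sites used here are those of RefSeq. For Tyrp1 the deposited gene model starts earlier, at chr4:80834123, so its M-box core lies inside that model. The M-box core began 23 bases before the start of Tyr, 48 before that of Tyrp1 and 152 before that of Dct. It contains the E-box CATGTG, which alone was in 12.3% of all promoters. Slc24a5 had that E-box in reverse 13 bases before its start, Oca2 had it 186 bases before, and Dct had a further copy 232 bases before. The motif TAATCC, bound by Otx2, another regulator of pigment epithelium genes, lay 119 bases before the start of Dct and, in reverse (GGATTA), 119 bases before 1 of the 3 Mitf starts, and was in 6.25% of all promoters. The E-box CACGTG, in 6.02% of them, was in no promoter of the 6 genes. A match is a stretch of letters and was not tested for binding.

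Depth was even within each table, with 15033983 to 16848254 counts a library in the wild-type set and 27227847 to 30315086 in the Rag2 set. Rod photoreceptor markers (8 genes) took 14473 to 62192 CPM (counts scaled to library size) in the wild-type libraries, and the 10 markers of the pigment epithelium 1542 to 3704 CPM, so retina and pigment epithelium were both present, and 7 endothelial markers took 143 to 356 CPM. Of the 5 melanocyte markers, Pax3 stayed near 0, at 0.0 to 0.433 CPM in the wild-type libraries, and the summed list took 34.2 to 79.4 CPM. Transcripts from outside the retina and choroid varied. CNV day 14 replicate 1 stood apart from the rest, with 146632 CPM in 14 lens markers against 9.73 to 54222 CPM in the other 15 libraries, 14473 CPM in the rod markers against 26918 to 62192 CPM, and 312 CPM in the 4 ciliary body and iris markers against 25.9 to 115 CPM. CNV day 3 replicate 3, with the most RNA of cornea and conjunctiva markers at 32146 CPM, and CNV day 7 replicate 2, with the least lens RNA at 9.73 CPM, were also left out together with it in 1 alternative. In the Rag2 set the receptor gene Il2rg, which encodes the common gamma chain, had 0, 0 and 0 counts in Rag2 gc KO and 37, 62 and 28 counts in Rag2 KO. Rag2 itself had 0, 1 and 0 counts in Rag2 gc KO and 0, 0 and 0 counts in Rag2 KO.

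On mm10, the deposited tables place the enzymes Tyr at chr7:87424771-87493512, Tyrp1 at chr4:80834123-80851719 and Dct at chr14:118012790-118052244. Pmel lies at chr10:128704195-128720238, Mlana at chr19:29697921-29708448 and Mitf at chr6:97807052-98021349. The transporters Slc45a2 and Oca2 lie at chr15:11000721-11029233 and chr7:56239760-56536518, and Gpr143 at chrX:152781921-152808646, and all 10 are protein-coding.

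Levels were compared between genes only per length, in the FPKM values the authors deposited, which divide counts by gene length. In controls Mlana had the highest mean at 61.6 ± 8.71 FPKM (SD, n = 4), followed by Pmel at 48.0 ± 10.4, Dct at 43.1 ± 9.14 and Tyrp1 at 33.5 ± 8.54 FPKM, and each of these overlapped its neighbour in that order. Slc24a5 came next at 7.13 ± 0.950 FPKM, below every control library of Tyrp1 and above every one of Oca2. Oca2 (3.99 ± 1.27 FPKM) and Tyr (3.98 ± 0.760 FPKM) overlapped, as did Slc45a2 (2.59 ± 0.417 FPKM) and Mitf (2.41 ± 0.187 FPKM), and Gpr143 was lowest at 1.73 ± 0.325 FPKM. Tyrosinase itself was thus listed at a lower level per length than its relatives Dct and Tyrp1 in every control library. At day 3 Mlana no longer overlapped Pmel, with 74.6 ± 12.3 FPKM for Mlana and 25.6 ± 5.66 FPKM for Pmel (SD, n = 4). The whole order depends on the deposited gene lengths, which ran from 623 bases for Mlana to 7108 for Tyr. The Mlana gene model is also the only 1 of the 10 that differs from GENCODE M21, so its place depends on that model too.

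At day 3 after the laser, the sodium-calcium exchanger Slc24a5 and tyrosinase fell, Slc24a5 to 8.53 ± 0.491 CPM, against 16.8 ± 2.23 CPM in control, and Tyr to 15.9 ± 2.29 CPM, against 28.5 ± 5.31 CPM in control (SD, n = 4 each). The related enzymes Tyrp1 and Dct and the fibril protein Pmel were lower by a like amount in every library but did not pass the test. Mlana, Slc45a2, Oca2, Mitf and Gpr143 overlapped control. The comparison asked how the tissue differed 3 days after injury from tissue without CNV.

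Slc24a5 had 7.84, 8.99, 8.61 and 8.68 CPM in the 4 day 3 libraries, against 17.2, 13.6, 18.7 and 17.6 CPM in the 4 controls. The 4 day 3 values lay close together and all lay under the lowest control. Its log2 fold change was -0.97 ± 0.21 (SE, n = 4 against 4), with an edgeR adjusted p of 0.0156. It passed in 16 of 18 alternatives, and not without control replicate 3 (log2 difference -0.89, edgeR adjusted p = 0.0584) or with scores for lens and cornea in the model (-1.10, edgeR adjusted p = 0.0654). The gene lies at chr2:125068124-125088677 on mm10 and overlaps Myef2 on the opposite strand, which reached 1499 counts in a library. The strand setting of the counting is not given in the sources used here, so reads of the 2 genes may not be separated. Myef2 had a log2 difference of -0.63 at day 3 (edgeR adjusted p = 0.0883).

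Tyr had 14.9, 13.2, 17.2 and 18.4 CPM at day 3, against 29.9, 21.97, 34.8 and 27.5 CPM in control. Every day 3 library lay below every control. The log2 fold change was -0.84 ± 0.26 (SE, n = 4 against 4; edgeR adjusted p = 0.0453). This call was close to the threshold, was lost in 10 of 18 alternatives, among them leaving out any 1 of the 8 libraries, and had adjusted p values from 0.00362 to 0.123 over them. All of these alternatives kept a negative sign for Tyr, from -1.29 to -0.71.

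Tyrp1, which acts late in the synthesis of black-brown melanin in the mouse, had 41.3, 55.1, 52.65 and 52.1 CPM at day 3, against 105, 66.1, 122 and 88.6 CPM in control. Dct, which converts dopachrome, had 117, 152, 145 and 169 CPM at day 3, against 279.7, 179.9, 305 and 261 CPM in control. For Pmel the values were 43.8, 74.4, 53.6 and 61.7 CPM at day 3, against 117, 75.4, 128 and 125 CPM in control. In all 3 genes the day 3 values lay below all controls, closest for Pmel, and control replicate 2 was the lowest control each time. The log2 differences were -0.93 ± 0.43 for Tyrp1, -0.81 ± 0.36 for Dct and -0.93 ± 0.45 for Pmel (SE, n = 4 against 4), and the edgeR adjusted p-values of 0.128, 0.117 and 0.146 missed the threshold. Pmel overlaps Dgka (up to 2055 counts in a library) and Cdk2 (up to 611 counts) on the opposite strand, so its counts are uncertain in the same way as those of Slc24a5. Cdk2 rose at day 3, with a log2 fold change of 1.02 (edgeR adjusted p = 0.0427), and Dgka had a log2 difference of 1.15 (edgeR adjusted p = 0.0935).

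Mlana had a difference of the other sign. It had 37.4, 44.1, 48.2 and 55.4 CPM at day 3, against 46.3, 34.2, 39.5 and 35.0 CPM in control. The groups overlapped, 3 of the 4 day 3 libraries lay above 3 of the 4 controls, and the log2 difference was 0.26 ± 0.35 (SE, n = 4 against 4; edgeR adjusted p = 0.604). The sign turned to -0.60 when lens and cornea marker scores were added to the model.

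The other 4 genes had smaller differences than the enzymes, with overlapping groups. The transporter Slc45a2 had 5.33 to 9.93 CPM at day 3 and 6.03 to 8.96 CPM in control, a log2 difference of -0.15 ± 0.34. Oca2, which controls melanosomal chloride flow, had 9.06 to 16.4 CPM at day 3 and 12.1 to 22.8 CPM in control, a difference of -0.31 ± 0.48. Mitf had 11.1 to 14.2 CPM at day 3 and 14.1 to 16.3 CPM in control, so the ranges touched, with a difference of -0.28 ± 0.19. Gpr143 had 1.84 to 3.84 CPM at day 3 and 2.92 to 4.32 CPM in control, with a difference of -0.37 ± 0.30. Their edgeR adjusted p-values ran from 0.276 for Mitf to 0.754 for Slc45a2.

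Over the 10 genes, 2 fell and 0 rose at day 3, and 7.77% of the 18657 genes tested fell. In 5 of the 10, every day 3 library lay below every control, as in 22.8% of all genes tested. The log2 difference was below 0 for 9 of 10, against 49.3% of all genes, and its median was -0.59, against 0.01 over all genes. The spread estimate is shared by all 16 libraries, and the call count moved with which libraries entered it. Fitted on the day 3 and control libraries alone, Tyr, Tyrp1, Dct, Pmel and Slc24a5 fell, 5 of 10, with 21.8% of all genes tested falling there. The same 5 fell in the fit without the 3 libraries named above, with 12.0% of all genes. When scores for lens and cornea entered the model, edgeR called 0 of 10, with 0.976% of all genes falling. The log2 differences were larger in that fit, at -1.29 for Tyr, -1.10 for Slc24a5, -1.91 for Tyrp1, -1.56 for Dct and -1.89 for Pmel. Their edgeR adjusted p-values ran from 0.0633 to 0.0889. The lens markers summed to 28463 to 54222 CPM at day 3 and 190 to 13436 CPM in control, without overlap. Day 3 and control thus share no lens level, and the adjustment rests on differences in lens score within groups over all 16 libraries. Among these, CNV day 14 replicate 1 was high in both lens markers (146632 CPM) and the 10 pigment genes (979 CPM). The larger values of that fit do not show a fall apart from lens RNA.

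**Figure D1:**
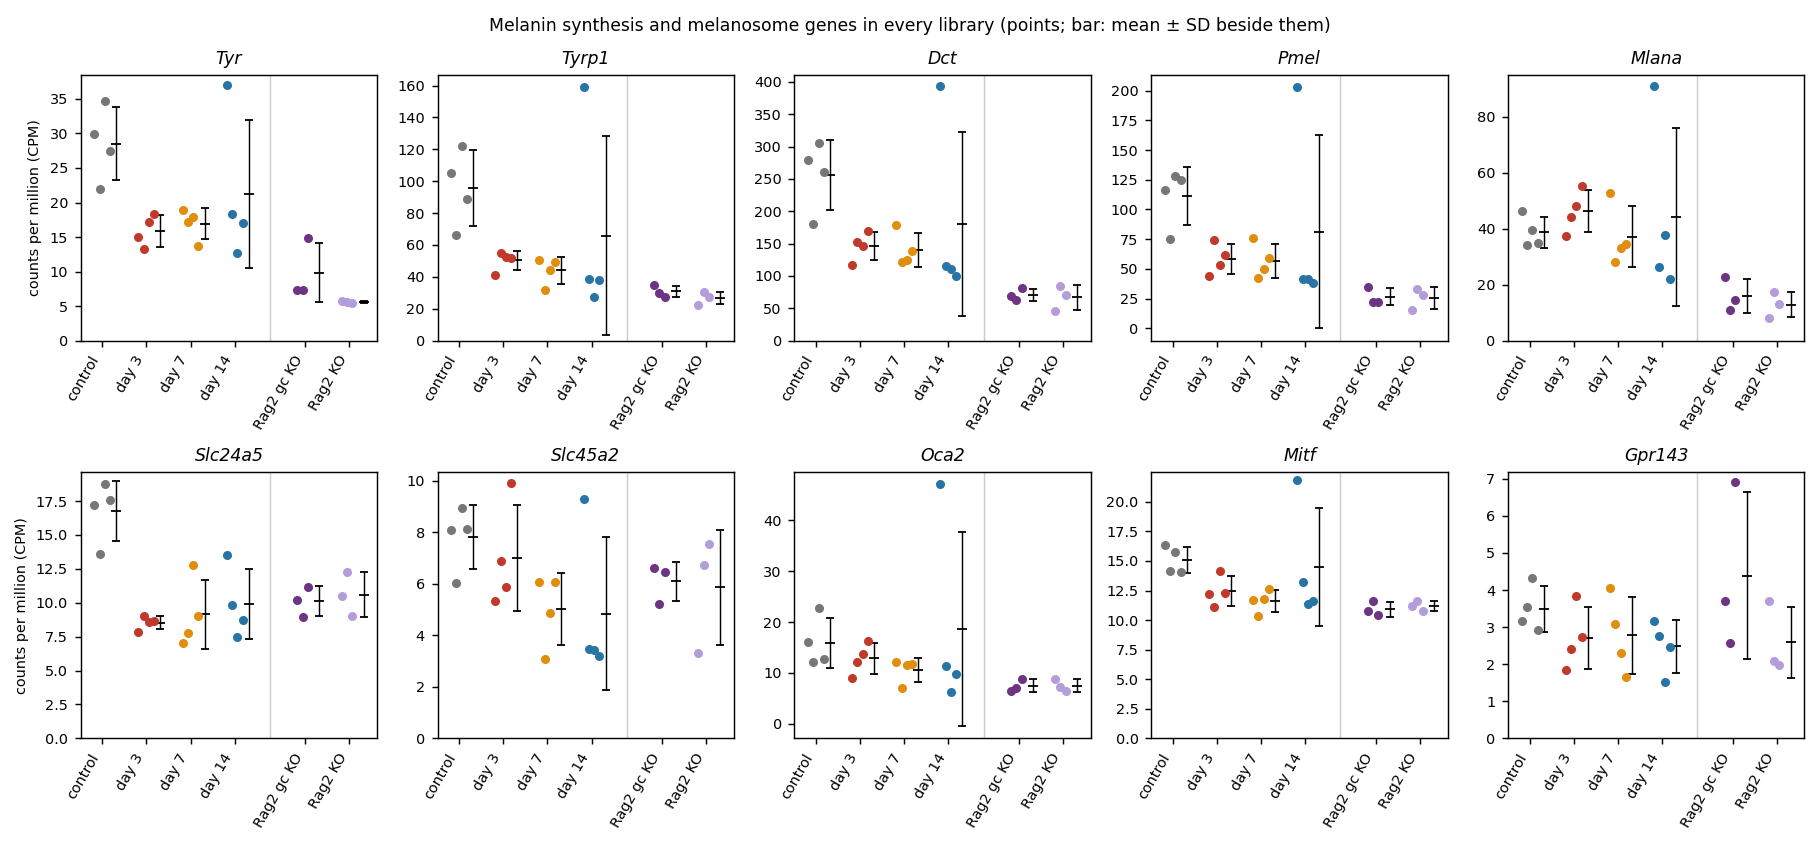
CPM of each gene (y axis, 1 panel per gene) in every library, with control, day 3, day 7 and day 14 of the wild-type table left of the grey line and Rag2 gc KO and Rag2 KO right of it. Points are libraries and the bar beside them is the mean ± SD (n = 4 or 3). CNV day 14 replicate 1 is the high point in Tyrp1, Dct, Pmel, Mlana, Oca2 and Mitf, and Slc24a5 has all CNV points below all controls.

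At day 7 Slc24a5 was the 1 gene of the 10 that passed the test, Tyr, Tyrp1 and Dct again lay below every control, and Mlana lay on both sides of the controls. The day 3, day 7 and day 14 comparisons share the 4 control libraries, so their likeness is not independent. Slc24a5 had 7.02, 7.73, 12.8 and 9.02 CPM at day 7, against 13.6 to 18.7 CPM in control. All day 7 values were lower, with replicate 3 nearest to control, and the log2 fold change was -0.87 ± 0.21 (SE, n = 4 against 4; edgeR adjusted p = 0.0224). The call was kept in 13 of 18 alternatives, and leaving out control replicate 1, 3 or 4 or CNV day 7 replicate 1 or 2 ended it, with adjusted p values up to 0.0871.

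Tyr had 18.8, 17.2, 17.9 and 13.8 CPM at day 7, against 21.97 to 34.8 CPM in control. Tyrp1 had 50.3, 31.9, 44.4 and 49.5 CPM at day 7, against 66.1 to 122 CPM in control. Dct had 178, 121, 124 and 138 CPM at day 7, against 179.9 to 305 CPM in control. None of these groups overlapped, and Dct in CNV day 7 replicate 1 came closest to a control. The log2 differences were -0.75 ± 0.26 for Tyr, -1.12 ± 0.43 for Tyrp1 and -0.87 ± 0.36 for Dct (SE, n = 4 against 4), with edgeR adjusted p-values of 0.0725, 0.0939 and 0.116. Pmel overlapped control by 1 library each way, with 75.7, 42.3, 50.1 and 59.1 CPM at day 7 against a lowest control of 75.4 CPM, and its log2 difference was -0.97 ± 0.45 (edgeR adjusted p = 0.154).

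Mlana had 52.9, 28.03, 33.1 and 34.7 CPM at day 7, against 34.2 to 46.3 CPM in control, and its log2 difference was -0.06 ± 0.35. Day 7 replicate 1 was above all controls and replicates 2 and 3 were below them. Mitf had 10.3 to 12.6 CPM at day 7 and 14.1 to 16.3 CPM in control, without overlap, and a log2 difference of -0.38 ± 0.19 (edgeR adjusted p = 0.171). Slc45a2, Oca2 and Gpr143 overlapped control, with log2 differences of -0.63 ± 0.34, -0.59 ± 0.49 and -0.33 ± 0.30 (SE, n = 4 against 4).

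Of the 10 genes, 1 fell at day 7, with 6.9% of all genes tested. Every day 7 library was below every control in 5 of 10, as in 18.4% of all genes, and all 10 log2 differences were below 0, against 47.8% of all genes. The median was -0.69, against 0.03 over all genes. As at day 3, Tyr, Tyrp1, Dct, Pmel and Slc24a5 fell in the fit on the day 7 and control libraries alone (13.9% of all genes fell there) and in the fit without the 3 libraries (11.4%). When scores for lens and cornea entered the model, Tyr, Tyrp1, Slc24a5 and Mitf fell, 4 of 10, with 5.07% of all genes. The lens effect in that fit was taken over all 16 libraries, among them CNV day 14 replicate 1, with 146632 CPM of lens markers. At day 14 the fit moved Tyrp1 from -0.54 to -1.39, and leaving that library out gave -1.44. The part of that library in the 4 calls was not tested.

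At day 14 the 4 libraries split into 1 very high library and 3 low ones, and edgeR called none of the 10 genes. CNV day 14 replicate 1 had 979 CPM over the 10 genes together, more than any other library, against 281, 260 and 252 CPM in day 14 replicates 2, 3 and 4, and 427 to 699 CPM in control. It is also the library with the high lens and ciliary markers described above, whose part in these values was not tested. Dct had 393, 115, 110.4 and 100.0 CPM at day 14, against 179.9 to 305 CPM in control. Replicate 1 lay above every control and the other 3 below every control, and the log2 difference was -0.51 ± 0.36 (SE, n = 4 against 4; edgeR adjusted p = 0.373).

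The same split was seen in Tyrp1, which had 159, 38.6, 27.4 and 38.3 CPM at day 14, against 66.1 to 122 CPM in control. It was also seen in Pmel, which had 203, 41.9, 41.6 and 38.3 CPM at day 14, against 75.4 to 128 CPM in control. Oca2 had 47.1, 11.3, 6.16 and 9.86 CPM at day 14, against 12.1 to 22.8 CPM in control, and Tyr had 37.0, 18.3, 12.7 and 17.0 CPM at day 14, against 21.97 to 34.8 CPM in control. Replicate 1 exceeded every control, and replicates 2 to 4 lay below every control, in all 4 of these genes. Mlana had 91.0, 26.3, 37.8 and 22.1 CPM at day 14, against 34.2 to 46.3 CPM in control, and its replicate 3 was within the controls.

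Slc24a5 did not split in this way. It had 13.5, 9.85, 7.49 and 8.76 CPM at day 14, against 13.6 to 18.7 CPM in control. All 4 libraries, replicate 1 included, lay below every control, replicate 1 just under control replicate 2, and the log2 difference was -0.76 ± 0.21 (SE, n = 4 against 4; edgeR adjusted p = 0.0779). DESeq2 called it at an adjusted p of 0.0108. Slc45a2 had 9.31, 3.46, 3.44 and 3.18 CPM at day 14, against 6.03 to 8.96 CPM in control, a log2 difference of -0.69 ± 0.34, with replicate 1 above and the others below every control. Gpr143 had 1.51 to 3.18 CPM at day 14 and 2.92 to 4.32 CPM in control, and Mitf had 11.4 to 21.9 CPM at day 14 and 14.1 to 16.3 CPM in control.

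The count of called genes was 0 of 10 at day 14, with 0.241% of all genes falling. At an unadjusted p under 0.05 there was 1 (Slc24a5), against 24.8% of all genes, DESeq2 called that gene, with 5.17% of all genes falling by DESeq2, and limma voom called 0. Every day 14 library was below every control in 1 of 10, as in 12.8% of all genes, and 8 of 10 log2 differences were below 0, against 46.4%. Without CNV day 14 replicate 1, Tyrp1, Dct and Pmel fell, with log2 fold changes of -1.44, -1.22 and -1.44 and an edgeR adjusted p of 0.0248 each, while 0.317% of all genes fell. Tyr, Slc24a5 and Slc45a2 came to -0.82, -0.93 and -1.20 there, with edgeR adjusted p-values of 0.0558, 0.0525 and 0.0558. In the fit without all 3 libraries these 3 fell as well, 6 of 10 in all, with 1.83% of all genes.

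**Figure D2:**
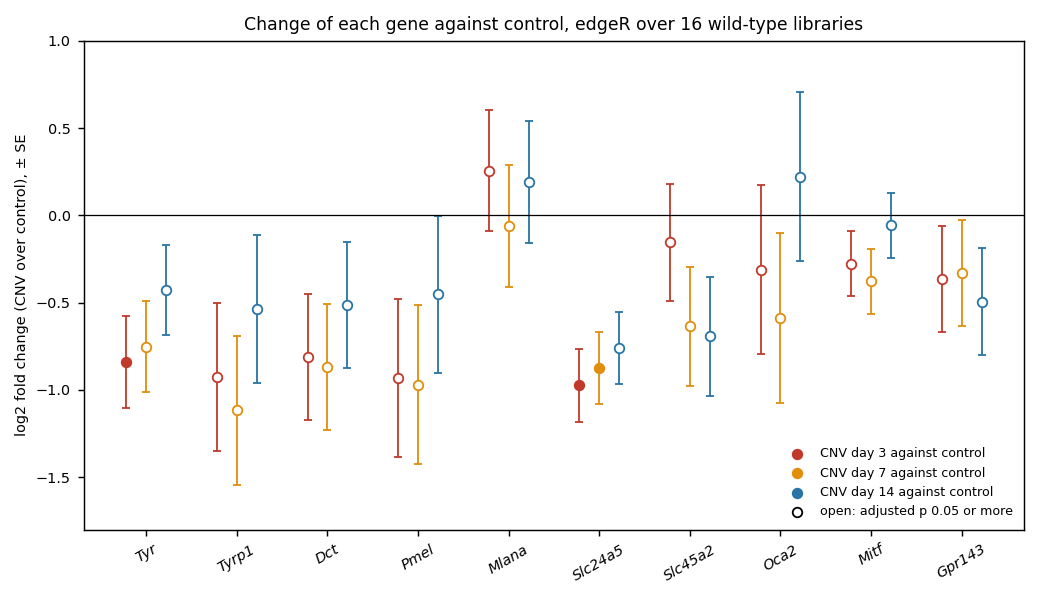
Log2 fold change of each gene (y axis, CNV over control, ± SE of the edgeR model) at day 3, day 7 and day 14. Filled points passed an adjusted p under 0.05, which were Tyr and Slc24a5 at day 3 and Slc24a5 at day 7, and the Mlana points lie near 0.

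Between times after the laser no gene of the 10 passed the test. Day 7 against day 3 gave 0 of 10 by edgeR, with 0.0% of all genes called, 0 of 10 at an unadjusted p under 0.05 (6.13% of all genes), and 0 by DESeq2 and by limma voom. The log2 differences ran from -0.48 for Slc45a2 to 0.10 for Slc24a5. Day 14 against day 3 also gave 0 of 10 by edgeR (0.00536% of all genes) and 0 at an unadjusted p under 0.05 (6.77%), and DESeq2 and limma voom called 0, with differences from -0.54 for Slc45a2 to 0.53 for Oca2. Slc45a2 fell at day 14 against day 3 once day 14 replicate 1 was left out, with a log2 fold change of -1.06 (edgeR adjusted p = 0.0287), while 3.72% of all genes fell. It had 3.18 to 3.46 CPM in those 3 day 14 libraries and 5.33 to 9.93 CPM at day 3.

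The counts of 2 genes in the same library can be set against each other without any scaling between libraries. These ratios were chosen after the values had been seen, 18 ratio comparisons were made, and 4 libraries against 4 can give no p under 0.0286. Mlana over Dct, as log2 of the count ratio, was -1.65, -1.79, -1.59 and -1.61 at day 3, against -2.60, -2.40, -2.95 and -2.90 in control. All day 3 libraries were above all controls, and the means differed by 1.05. At day 7 the difference from control was 0.77 and at day 14 it was 0.72, again with no overlap at either time, CNV day 14 replicate 1 included. Each of these gave a two-sided exact permutation p of 0.0286, and 0.0571 after Benjamini-Hochberg adjustment over the 18.

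Set over Tyrp1, Mlana differed from control by 1.15, 1.01 and 0.85 at day 3, day 7 and day 14, each without overlap (exact permutation p = 0.0286, adjusted 0.0571). Over Pmel the differences were 1.18 and 0.88 at day 3 and day 7 with the same p, and 0.81 at day 14 (exact permutation p = 0.0571, adjusted 0.0935). Slc24a5 over Dct differed by -0.17, -0.04 and -0.03 at day 3, day 7 and day 14, with exact permutation p-values of 0.143, 0.886 and 1.0. At day 14 this ratio was -4.87 in replicate 1 and -3.55, -3.88 and -3.51 in replicates 2, 3 and 4, against -4.02 to -3.73 in control. Leaving out 1 library at a time gave differences from -0.18 to 0.27 at day 14. Mitf over Dct differed by 0.52, 0.48 and 0.64 at day 3, day 7 and day 14 (exact permutation p = 0.0857, 0.0571 and 0.0857), with overlap each time. Leaving out any 1 library kept the Mlana over Dct difference between 0.97 and 1.15 at day 3, and between 0.57 and 0.82 at day 14. None of the 18 passed after adjustment.

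**Figure D3:**
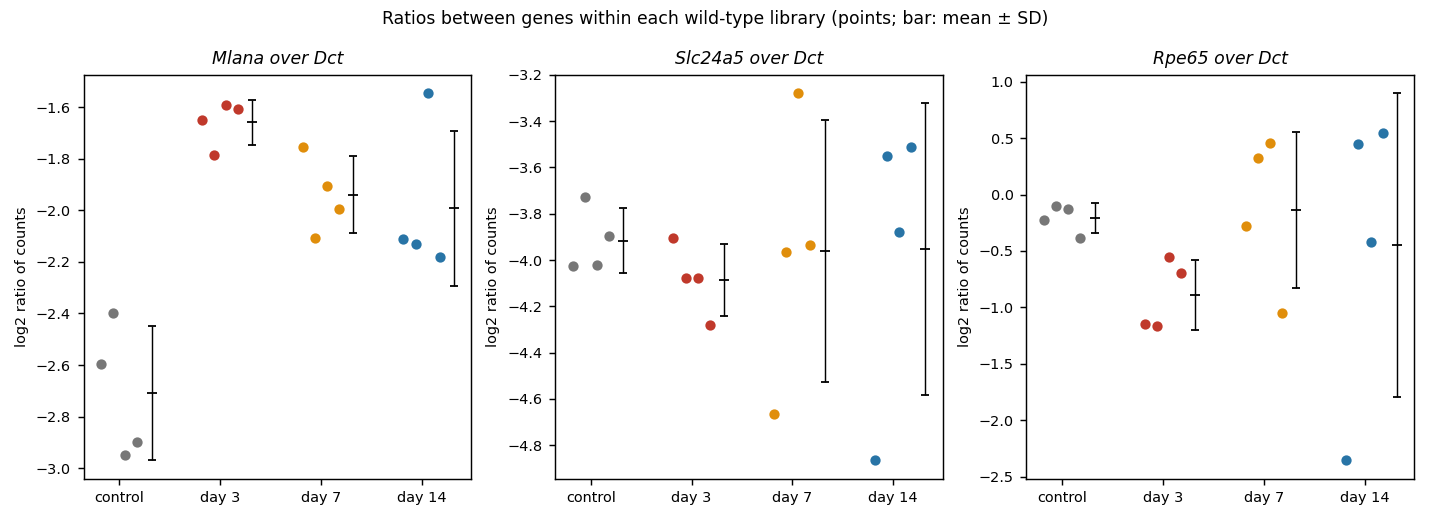
Log2 ratio of counts within each wild-type library (y axis) for Mlana over Dct, Slc24a5 over Dct and Rpe65 over Dct, with points as libraries and the bar as mean ± SD (n = 4). All CNV points lie above all controls for Mlana over Dct, and Rpe65 over Dct is lower than control at day 3.

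Markers of the pigment epithelium were set beside the pigment genes. At day 3, 4 of the 10 markers fell and 0 rose, while 7.77% of all genes tested fell. They were the retinoid isomerase Rpe65 (log2 fold change -1.45), the retinol acyltransferase Lrat (-2.02), the opsin Rgr (-1.06) and the retinol-uptake receptor Stra6 (-1.17), with edgeR adjusted p-values from 0.00779 to 0.0387. At day 7 only Lrat among the 10 fell (-1.47, edgeR adjusted p = 0.0209), with 6.9% of all genes tested. At day 14 edgeR called 0, with 0.241% of all genes falling. At an unadjusted p under 0.05 there were 6 of the 10 at day 14, against 24.8% of all genes. Rpe65 over Dct differed from control by -0.68 at day 3, without overlap (exact permutation p = 0.0286, adjusted 0.0571), by 0.07 at day 7 and by -0.24 at day 14. The libraries were spread widely, from -1.05 to 0.46 at day 7 and from -2.36 to 0.54 at day 14, against -0.38 to -0.10 in control. The lowest value, -2.36, was that of CNV day 14 replicate 1. In CNV day 14 replicate 1, where the 10 pigment genes were highest, the 10 epithelial markers summed to 1947 CPM, the lowest of the 4 day 14 libraries. CNV day 14 replicate 3 was close to it, at 2003 CPM, and had 260 CPM over the 10 pigment genes. The 4 ciliary body and iris markers summed to 106 to 115 CPM at day 3, 81.0 to 91.6 CPM at day 7, 25.9 to 312 CPM at day 14 and 59.9 to 74.5 CPM in control. EdgeR called 0 of 4 at each time. At an unadjusted p under 0.05 there were 1, 0 and 1 at day 3, day 7 and day 14, with 24.8% of all genes at day 14. Of markers of other tissues at day 3, 3 of 14 for lens and 4 of 11 for cornea and conjunctiva rose. So did 2 of 8 for skeletal muscle, 1 of 7 for endothelium and 3 of 6 for fibroblasts, with 6.97% of all genes tested. The lens sums did not overlap control, and the median log2 difference of the lens markers was 3.49. EdgeR called 0 of 8 for rods, with 4 at an unadjusted p under 0.05. In 8 of 8 rod markers every day 3 library lay below every control, as in 22.8% of all genes. Their median log2 difference was -0.64, against -0.59 for the 10 pigment genes. The part of these markers in the pigment gene values was not tested.

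**Figure D4:**
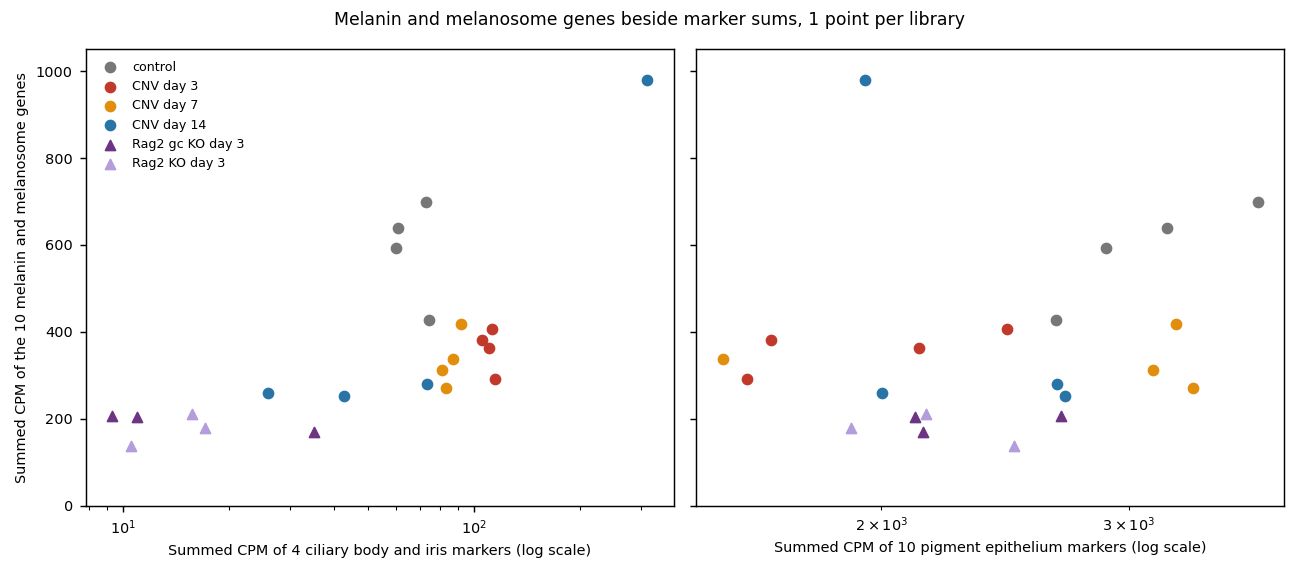
Summed CPM of the 10 melanin and melanosome genes (y axis) against the summed CPM of ciliary body and iris markers (left) and pigment epithelium markers (right), on log x axes, with 1 point per library. CNV day 14 replicate 1 is the point at 979 CPM, with the highest ciliary and iris sum, and the Rag2 libraries (triangles) lie lowest on the y axis.

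Other genes of the pigment pathway were taken from 4 lists, whose counts stand beside the 7.77% of all genes that fell and the 6.97% that rose at day 3. Of 7 genes of melanosome movement, 2 fell at day 3 and 0 rose. Myo5a, the motor that carries melanosomes along actin, had 98.8 ± 13.7 CPM at day 3 and 200.5 ± 7.45 CPM in control (SD, n = 4 each), a log2 fold change of -1.02 (edgeR adjusted p = 0.0164). Myrip, which links Rab27a to myosin VIIa on the melanosomes of the pigment epithelium, had 56.5 ± 5.48 CPM at day 3 and 106 ± 9.39 CPM in control, a fold change of -0.91 (edgeR adjusted p = 0.00873). Both fell at day 7 as well (-0.93 and -0.85, edgeR adjusted p = 0.0240 and 0.0107), and Myo5a is also used in neurons.

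Of 20 genes of melanosome biogenesis and cargo sorting, 2 fell and 1 rose at day 3, shares near those of all genes, and the median log2 difference was 0.15. Lyst, which controls the size of lysosome-related organelles, had a log2 fold change of -0.70, and the sorting factor Vps33a one of -0.44 (edgeR adjusted p = 0.0242 and 0.0203), while the tetraspanin Cd63, which sorts Pmel, rose by 0.92 (edgeR adjusted p = 0.0417). At day 7 the 2 falls, Lyst and Vps33a, were called again. Cd63 is also made by macrophages, and 9 of 11 macrophage and microglia markers rose at day 3, with a summed level of 264 to 553 CPM at day 3 and 154 to 248 CPM in control. The part of these cells in the Cd63 value was not tested. Of 5 other melanosomal channels and transporters, 0 were called at day 3 by edgeR, with 1 at an unadjusted p under 0.05 (the copper transporter Atp7a, log2 difference -1.29, edgeR adjusted p = 0.0638), and Atp7a fell at day 7 (log2 fold change -1.75, edgeR adjusted p = 0.0333). Of 12 relatives and upstream regulators of Mitf, 9 were tested and 1 fell at day 3, also a share near that of all genes. It was Sox10, which activates Mitf in melanocytes. Sox10 had 11.01 ± 3.52 CPM at day 3 and 18.5 ± 2.04 CPM in control (SD, n = 4 each), a log2 fold change of -0.75 (edgeR adjusted p = 0.0446). Of the 5 melanocyte markers, 4 were tested, 1 fell (Sox10) and 0 rose. The receptor Kit had 25.0 ± 10.1 CPM at day 3 and 18.7 ± 7.54 CPM in control, Ednrb had 13.6 ± 3.12 CPM at day 3 and 13.4 ± 2.22 CPM in control, and Mc1r had 1.18 ± 0.334 CPM at day 3 and 2.09 ± 0.430 CPM in control (SD, n = 4 each), and none of these 3 passed the test. At day 14 edgeR called 0 in each of these 4 lists, with 0.241% of all genes falling. At an unadjusted p under 0.05 were 4 of 20 genes of biogenesis and sorting and 2 of 7 of movement at day 14. So were 3 of 5 channels and transporters and 1 of 9 regulators, against 24.8% of all genes. The lowest adjusted p there was that of Myrip, 0.0506 by edgeR at a log2 difference of -0.81, and Sox10 had -0.93 (edgeR adjusted p = 0.0699).

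Across the 16 wild-type libraries the 10 genes were compared pair by pair. All 45 pairs had a positive Pearson r of log2 CPM, from 0.12 (Mlana with Slc24a5) to 0.99 (Dct with Pmel), with a median of 0.74, and without CNV day 14 replicate 1 the median was 0.73 and 44 of 45 were positive. The libraries share groups, depth and tissue admixture, so these are descriptions. Of the other 18640 genes ranked, the one most like the mean of the 10 was Mlph, which ties Rab27a to Myo5a on melanosomes, with r = 0.94 over 16 libraries. Next were Irf2bp2 (0.94), Pld5 (0.93), the bicarbonate transporter Slc4a4 (0.92), Iqgap2 (0.91), Prkcq (0.90), Nid2 (0.90), the bicarbonate transporter Slc4a5 (0.90), Plce1 (0.90) and the ligand Edn3 (0.90). Without CNV day 14 replicate 1, Mlph (0.91), Irf2bp2 (0.90), Pld5 (0.89) and Slc4a5 (0.90) were still among the 10 most alike and Rasgrp3 came first (0.93). Among the pigment epithelium markers r ran from -0.20 for Best1 to 0.75 for Mertk, with Rpe65 at 0.31, or 0.60 without that library.

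Between Rag2 gc KO and Rag2 KO eyes, both at day 3 after the laser, no gene of the 10 passed the test, and Tyr was the one whose groups did not overlap. EdgeR called 0 of 10, with 0.465% of all 18923 genes called, DESeq2 and limma voom called 0, and 1 (Tyr) had an unadjusted p under 0.05, against 14.7% of all genes. Tyr had 7.31, 7.39 and 14.8 CPM in Rag2 gc KO, against 5.71, 5.66 and 5.43 CPM in Rag2 KO. All 3 Rag2 gc KO libraries were higher, with replicate 3 well above the other two. The log2 difference was 0.81 ± 0.28 (SE, n = 3 against 3; edgeR adjusted p = 0.243). Such a pattern, with every Rag2 gc KO library higher, was seen in 1 of 10, as in 11.5% of all genes. Leaving out 1 library at a time gave 0.39 to 0.99, lowest without Rag2 gc KO replicate 3.

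Gpr143 had 3.69, 2.56 and 6.90 CPM in Rag2 gc KO, against 3.70, 2.08 and 1.99 CPM in Rag2 KO, with replicate 3 again the highest Rag2 gc KO library and the groups overlapping. Its log2 difference was 0.76 ± 0.41 (edgeR adjusted p = 0.429), and 0.27 to 1.11 when 1 library at a time was left out, lowest without Rag2 gc KO replicate 3. Dct had 68.6, 63.2 and 81.5 CPM in Rag2 gc KO, against 46.3, 84.0 and 69.9 CPM in Rag2 KO, with overlap and a difference of 0.09 ± 0.23. Mitf had 10.7, 11.6 and 10.4 CPM in Rag2 gc KO, against 11.2, 11.6 and 10.8 CPM in Rag2 KO, with full overlap and a difference of -0.04 ± 0.12. Slc24a5 had 10.2, 8.97 and 11.2 CPM in Rag2 gc KO, against 10.5, 12.3 and 9.00 CPM in Rag2 KO, a difference of -0.07 ± 0.16.

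The other 5 genes overlapped between the genotypes. Tyrp1 had 27.6 to 34.9 CPM in Rag2 gc KO and 22.6 to 30.4 CPM in Rag2 KO. Pmel had 22.2 to 34.8 CPM in Rag2 gc KO and 15.5 to 33.1 CPM in Rag2 KO, and Mlana had 10.8 to 22.7 CPM in Rag2 gc KO and 8.22 to 17.3 CPM in Rag2 KO. These 3 genes overlapped. Slc45a2 had 5.22 to 6.60 CPM in Rag2 gc KO and 3.33 to 7.55 CPM in Rag2 KO, and Oca2 had 6.52 to 8.89 CPM in Rag2 gc KO and 6.35 to 8.88 CPM in Rag2 KO. The 5 log2 differences ran from 0.00 for Oca2 to 0.32 for Mlana. Among 45 gene pairs over the 6 Rag2 libraries, 28 had a positive r, with a median of 0.11. EdgeR called 0 genes in the 4 other pathway lists, with 2 of biogenesis and sorting, 0 of movement, 3 channels and transporters and 1 regulator at an unadjusted p under 0.05, and 0 in the pigment epithelium list, with 1. Over all genes, edgeR called 0.465%, and 14.7% had an unadjusted p under 0.05. The cystine transporter Slc7a11 had a log2 difference of 1.26 (edgeR adjusted p = 0.113). In the same libraries macrophage and microglia markers summed to 431 to 888 CPM in Rag2 gc KO and 277 to 393 CPM in Rag2 KO, with 0 of 11 called by edgeR and 8 at an unadjusted p under 0.05.

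The summed level of the 10 genes was 169 to 206 CPM in Rag2 gc KO and 136 to 210 CPM in Rag2 KO. The wild-type libraries had 252 to 979 CPM, and those of day 3 alone 291 to 406 CPM. Tyr, Tyrp1, Dct, Pmel, Mlana, Slc45a2, Oca2 and Mitf had lower means in both genotypes than at wild-type day 3. Slc24a5 was not lower, with means of 10.1 CPM in Rag2 gc KO, 10.6 CPM in Rag2 KO and 8.53 CPM at wild-type day 3. Gpr143 had means of 4.38 CPM in Rag2 gc KO, 2.59 CPM in Rag2 KO and 2.71 CPM at wild-type day 3. The 2 tables were normalised separately, and genotype, table and depth cannot be told apart in these differences, so no test was made. Markers of the ocular surface also differed, with 2.95 to 8.22 CPM in the Rag2 libraries and 2006 to 32146 CPM in the wild-type ones, as did the ciliary body and iris markers, at 9.32 to 35.1 CPM in the Rag2 libraries and 25.9 to 312 CPM in the wild-type ones.

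The authors' deposited table of comparisons with control listed more of the 10 genes. At an adjusted p under 0.05, the authors' deposited table listed 5 as lower at day 3 (Tyr, Tyrp1, Dct, Pmel and Slc24a5), with 12.4% of the genes given an adjusted p. It listed 7 at day 7, adding Slc45a2 and Mitf, with 9.62% of genes, and 1 at day 14, Slc24a5, with 1.94%. In the authors' deposited table the log2 fold change of Slc24a5 was -0.95 at day 3, -0.86 at day 7 and -0.75 at day 14, and that of Mlana was 0.28, -0.04 and 0.21.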

How the data were processed

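Reads were counted per gene with featureCounts 1.5.0-p3 on mm10, per the submitters' processing notes. No source used here names the aligner, the annotation release or the strand setting. The authors deposited raw counts and FPKM values for each library, per the file headers, and an FPKM value is the count over the gene length times 1 constant a library. They also deposited log2 fold changes and adjusted p-values for each time against control, per the file headers, made with a tool that is not named.

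Counts were tested with the quasi-likelihood test of edgeR 4.0.16 (R 4.3.3; TMM scaling, filterByExpr with a minimum count of 10 and total of 15), in 1 model for the 16 wild-type libraries and 1 for the 6 Rag2 libraries, and p-values were adjusted over all genes tested (Benjamini-Hochberg, threshold 0.05). CPM values are TMM-scaled, and log2 CPM used an offset of 0.5 CPM. Alternatives were DESeq2 1.42.0, limma voom 3.58.1, other scalings and filters, covariates, a replicate block and left-out libraries. The edgeR script was tested on simulated data. Ratios were tested with exact permutation tests (scipy 1.17.1). The members and lists were chosen with earlier results of these data known; the text names the 10 members, in other lists the genes that passed or else those with the lowest p, and the 10 genes most alike.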

Additional observations from a re-analysis of the deposited data

Results flagged for a closer look

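In 6 of the 40 combinations of a gene and a wild-type group, 1 library lay far from the other 3 by Dixon's test at its 95% critical value. Chance flags about 1 in 20 groups. Of these, 5 were CNV day 14 replicate 1, the library with the high lens and ciliary markers. It had 159.1 CPM of Tyrp1, against 27.4 to 38.6 CPM in the other 3 day 14 libraries, 393 CPM of Dct, against 100.0 to 115 CPM, and 203 CPM of Pmel, against 38.3 to 41.9 CPM. It also had 9.31 CPM of Slc45a2, against 3.18 to 3.46 CPM, and 47.1 CPM of Oca2, against 6.16 to 11.3 CPM. The remaining one was Oca2 in CNV day 7 replicate 2, low at 7.09 CPM against 11.5 to 12.1 CPM in the other 3 day 7 libraries.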

How the results depend on the processing

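The counts of calls moved most. Over all genes, edgeR called 2749 at day 3, 1962 at day 7 and 51 at day 14 against control, 0 for day 7 and 1 for day 14 against day 3, and 88 for Rag2 gc KO against Rag2 KO. In that order DESeq2 called 4799, 3768, 1801, 63, 115 and 692. No filter on low counts gave 1406, 751 and 26 against control, 2 for day 14 against day 3 and 491 for Rag2. Lens and cornea covariates gave 318 at day 3, 147 at day 14, 3 for day 7 against day 3 and 99 for day 14 against day 3. Without the 3 libraries the counts were 4168, 3686, 514, 9 and 683, and the 2 compared groups alone gave 7171, 4485, 1 at day 14 and 0 for day 14 against day 3. Library totals gave 6 at day 14 and 4 for day 14 against day 3, and limma voom 101 and 3. Leaving out 1 library gave 292 to 2409 at day 3, 128 to 2923 at day 7, 1 to 159 at day 14, 0 to 2 for day 7 against day 3, 0 to 1290 for day 14 against day 3 and 25 to 116 for Rag2.

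Of the 10 genes, 2, 1 and 0 were called against control at day 3, day 7 and day 14. No filter gave 1 at day 3; covariates 0 at day 3 and 4 at day 7; DESeq2 2 at day 7 and 1 at day 14; the fit without the 3 libraries 5, 5 and 6, and 1 for day 14 against day 3; and the 2 groups alone 5 and 5. Leaving out 1 library gave 0 to 1, 0 to 1 and 0 to 3, and 0 to 1 for day 14 against day 3. In the Rag2 pair 0 of 10 were called in all 13 alternatives.

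The labels give the groups the same replicate numbers, but same-numbered libraries did not steadily deviate together. Over 24 same-numbered wild-type pairs r ran from -0.56 to 0.53, with a median of 0.11 and 13 over 0.1. Over the 72 other wild-type pairs the median was -0.01, and 27 were over 0.1. Of 16 wild-type libraries, 4 correlated best with their own number. In the Rag2 set 1 of 3 same-numbered pairs was over 0.1, and 2 of 6 libraries correlated best with their own number. The replicate block gave 2, 1 and 0 called members, and over all genes 2 at day 14, 0 for day 14 against day 3 and 46 for Rag2.

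Signs turned in 68 of the member values recomputed, none of them called. Against control, Mlana became -0.60 at day 3 with covariates, 0.072 at day 7 without the 3 libraries, and at day 14 -0.055 with voom, -0.49 with covariates and -0.41 without the 3. Oca2 at day 14 became -0.25, -0.74 and -0.79 in the same settings. For day 7 against day 3, Pmel was 0.012 with library totals; covariates gave Tyrp1 0.31, Dct 0.26, Pmel 0.39, Oca2 0.31 and Mitf 0.12; and without the 3 libraries Dct was 0.011, Pmel 0.043 and Mitf 0.022. For day 14 against day 3, Tyrp1 was -0.0059 with voom, Mlana 0.10 and Gpr143 0.088 with covariates, and Tyrp1 -0.51, Dct -0.43, Pmel -0.56 and Oca2 -0.46 without the 3. Oca2 in the Rag2 pair was -0.00150 (RLE), -0.010 (library totals), -0.00147 (no filter), -0.012 (mean of at least 1 CPM) and -0.00132 (DESeq2).

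Leaving out 1 library gave, against control, Mlana -0.28 to 0.085 at day 7, and at day 14 Mlana -0.41 to 0.41, Oca2 -0.79 to 0.51 and Mitf -0.31 to 0.043. For day 7 against day 3 it gave Dct -0.19 to 0.020, Pmel -0.21 to 0.10, Slc24a5 -0.11 to 0.21 and Gpr143 -0.20 to 0.25. For day 14 against day 3 it gave Tyrp1 -0.53 to 0.64, Dct -0.42 to 0.50, Pmel -0.52 to 0.71, Mlana -0.68 to 0.16, Oca2 -0.49 to 0.82, Mitf -0.044 to 0.32 and Gpr143 -0.28 to 0.084. In the Rag2 pair it gave Dct -0.11 to 0.29, Pmel -0.21 to 0.28, Mlana -0.015 to 0.59, Slc24a5 -0.18 to 0.046, Slc45a2 -0.23 to 0.27 and Oca2 -0.14 to 0.14. The cause of these moves was not tested. With 3 or 4 libraries a group, low genes such as Gpr143 have few counts and a wide error.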
